A study of Mus musculus with 30 samples.

Results

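The comparison described here set mice 3 d after amputation of the digit tip against mice 24 h after it. The comparison was chosen with earlier results of these data known, and its libraries were then taken by time point alone. Its members were 6 of the 30 RNA-seq libraries of the series, 3 at each time. All 20321 genes of the deposited table were included, of which 13793 had enough counts to be tested. The animals were adult male C57Bl/6 mice with no transgene or drug, and in every one at most 33% of the distal phalanx (P3) of hindlimb digit 3 was removed from the right foot and the wound was left to heal without sutures. No uncut or sham-operated digit entered this comparison, and both groups carried the same cut. Each of the 6 libraries came from the amputated digit of 1 mouse, as poly(A) RNA read from 1 end over 65 bases. The tissue was whole, with skin, bone, vessels and blood-borne cells together, and in such bulk RNA fewer cells of a type and less RNA per cell cannot be told apart.

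Loss of the end of a mouse digit is followed by clotting and influx of neutrophils and monocytes, by removal of the cut bone by osteoclasts, and by closure of the skin over the stump, after which a mass of proliferating cells rebuilds the tip. Osteoclasts are large cells that form by fusion of monocyte-lineage precursors under the ligands M-CSF (Csf1) and RANKL (Tnfsf11). They seal off a patch of bone, acidify it with a proton pump and digest its collagen with cathepsin K. Early cytokines such as interleukin 6 and leukaemia inhibitory factor, and the prostaglandin enzyme Ptgs2, are made by injured tissue and by the cells that enter it.

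Total expected counts ran from 3177205 to 10097367 over the 6 libraries, with 13517 to 14921 genes at 1 count or more. Both times held 2 mice whose titles carry a July or August date and 1 whose title carries a November or December date, so that the campaigns were balanced between the times. Replicates 1 and 2 at 24 h differed from each other by a chi-square of 12.0 per degree of freedom, and replicates 2 and 3 at 3 d with 9.83, whereas pairs from different campaigns gave 43.4 to 52.4. A chi-square of counts also grows with sequencing depth. The median absolute log2 difference between depth-scaled values was 0.295 and 0.325 for the 2 pairs within a campaign. For pairs from different campaigns it was 0.381 to 0.474. The single November to December library at 24 h (replicate 3) stood apart from the others by gene length. Over the 2758 shortest genes tested, its median deviation from the mean of all 30 libraries was 0.41 on the log2(CPM + 1) scale, against -0.06 to 0.07 in the other 5 libraries and -0.14 to 0.07 in the other 29 of the series, where CPM is the count relative to a library's total, scaled by TMM between libraries. The list medians that turned sign without it are given both ways. The part of RNA quality or of library preparation in this was not tested.

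**Figure D1:**
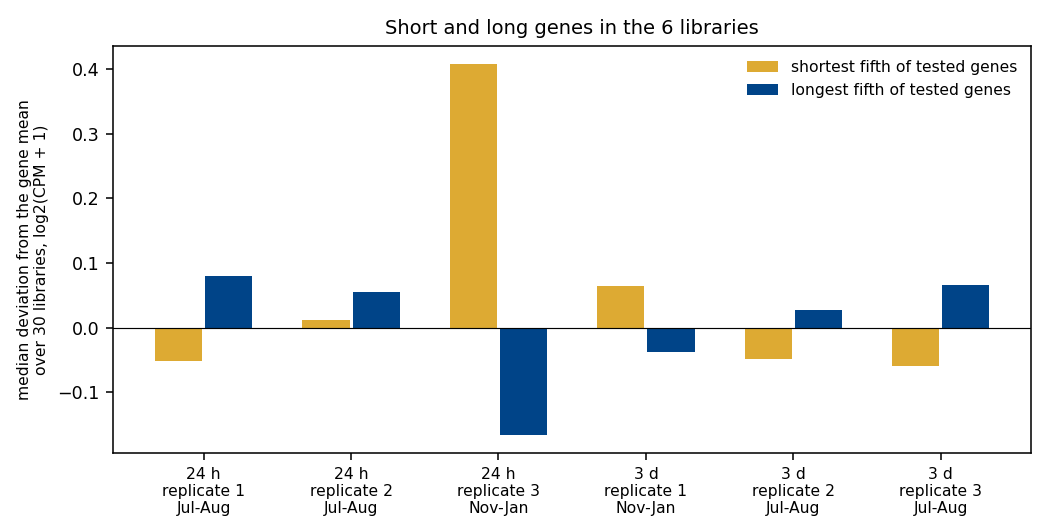
Bars give the median deviation of the 2758 shortest and of the 2758 longest tested genes from their mean over 30 libraries, in log2(CPM + 1), for each of the 6 libraries. Replicate 3 at 24 h is at 0.41 for short genes and -0.17 for long genes, and the other 5 libraries lie between -0.06 and 0.08.

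The labelled tissue was borne out by its markers. The keratins Krt10 and Krt1 of the upper epidermis had means of 18569 ± 2448 and 16795 CPM at 24 h (SD, n = 3), and the basal keratin Krt14 had 4964 CPM. Collagen, endothelial and smooth muscle genes were present at both times. Skeletal muscle markers summed to at most 15.6 CPM in any library, with Ckm and Myh4 at 0 in all 6, and the osteocalcin genes Bglap and Bglap2 of mature osteoblasts averaged 1.43 and 0.885 CPM at 24 h.

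Between 24 h and 3 d, 9 genes rose and none fell at an adjusted p under 0.05 (quasi-likelihood F test of edgeR, p adjusted by Benjamini and Hochberg over 13793 genes, all 30 libraries in the fit). The higher calls were 0.0653% of the genes tested and the lower calls 0%. Of the 9, Ctsk, Mmp9 and Atp6v0d2 are osteoclast genes by a list drawn up for this comparison, and Slc9b2 and Jdp2, which were not on it, are known from osteoclasts too. The comparison was taken up as a turning down of inflammation, and no inflammatory gene passed the test in that direction with this fit. At an unadjusted p under 0.05 there were 437 genes lower at 3 d, or 3.17% of those tested, and 466 higher, or 3.38%. The lower ones were short, with a median length of 0.54 relative to the typical gene against 1.10 for the higher ones. DESeq2's test called 18 genes higher and 2 lower (Sec61g and Urah), and a fit of the 6 mice alone called 3 higher and 2 lower (Il6 and Il1rl1).

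**Figure D2:**
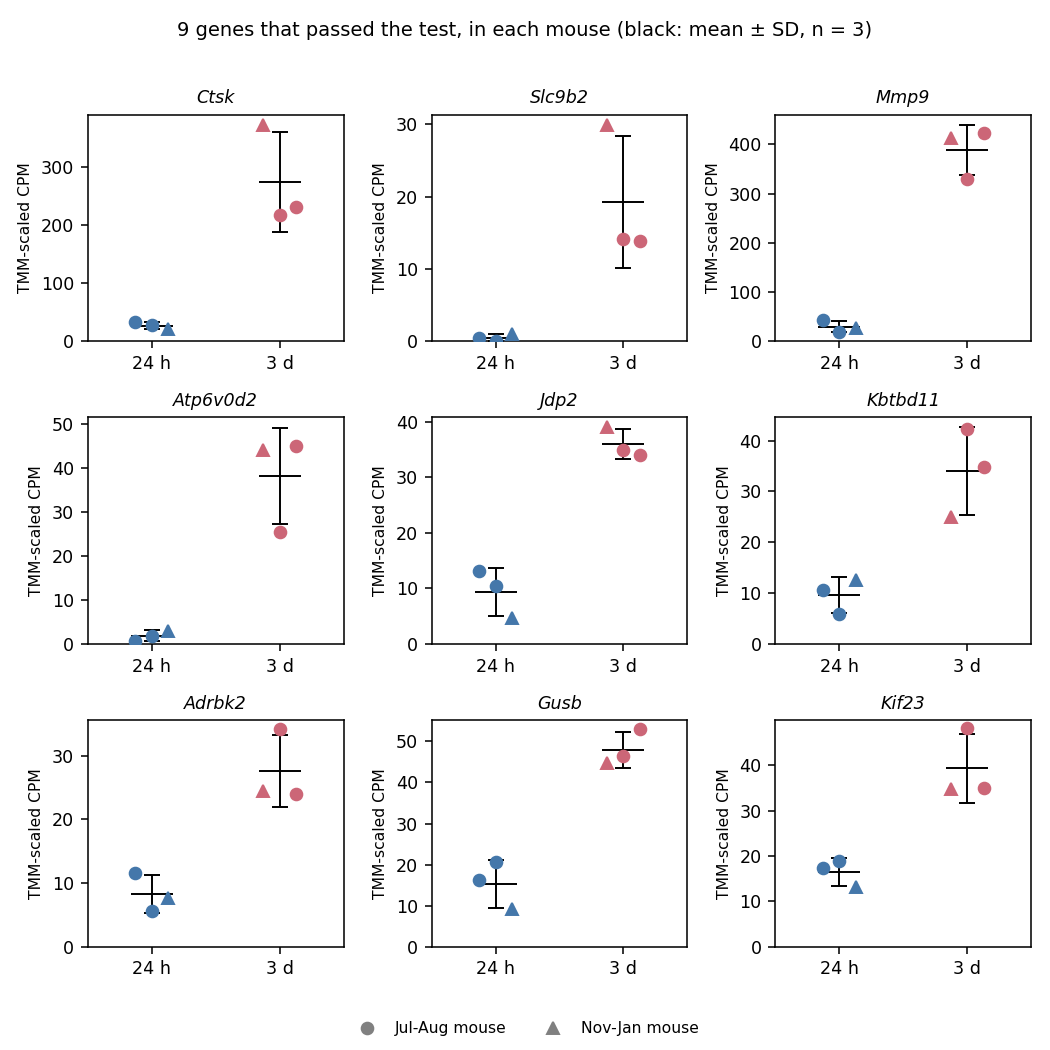
Each point is 1 mouse, in TMM-scaled CPM on a linear axis from 0, for the 9 genes that passed, with black bars for the mean ± SD of 3 mice. In all 9 panels every mouse at 3 d lies above every mouse at 24 h, and for Ctsk the lowest at 3 d is 217 against a highest of 32.7 at 24 h.

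Ctsk encodes cathepsin K, the protease with which osteoclasts digest bone collagen. The mice at 24 h had 32.7, 27.1 and 20.1 CPM, and those at 3 d had 373, 217 and 231 CPM. The groups were far apart, with means of 26.6 ± 6.32 and 274 ± 86.1 CPM (SD, n = 3), a ratio of 10.3, and the highest 3 d value was that of the November mouse. The fitted log2 fold change was 3.36 with a standard error of 0.37 and an adjusted p of 1.04e-05. Within the July to August mice the mean difference was 2.87 on the log2(CPM + 1) scale, and between the single mice of the later campaign it was 4.15. Ctsk passed in all 19 alternative fits across genes, with log2 fold changes from 2.93 to 3.54. It lies on chromosome 3 at 95499256 to 95509362 (GRCm38, plus strand).

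Mmp9 encodes gelatinase B, a matrix protease that osteoclasts make in quantity and that neutrophils store in granules. It stood at 42.4, 19.1 and 26.4 CPM at 24 h and at 414, 330.0 and 422 CPM at 3 d, so that the groups did not approach. The mean was 13.3 times as high at 3 d, with a log2 fold change of 3.73 (adjusted p = 0.00104, standard error 0.55), and it too passed in all 19 alternative fits. Neutrophil markers other than Mmp9 summed to 169 to 333 CPM at 24 h and to 182 to 245 CPM at 3 d, which overlap. Retnlg, a neutrophil transcript, was at 0 in all 3 mice at 3 d, the granule gene Camp was at 0 in all 6, and Ltf and Ngp were each seen in only 1 of the 6 libraries. Other markers went the other way. S100a8 and S100a9 had means 1.66 and 1.69 times as high at 3 d with overlapping mice, and the granule genes Mpo and Elane had 127 and 25 counts in replicate 1 at 3 d and none in the other 3 d mice. The part of neutrophils in the rise of Mmp9 was not tested. Mmp9 spans chromosome 2 from 164940780 to 164955850 on the plus strand.

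Slc9b2 encodes a sodium and proton exchanger that increases when precursors become osteoclasts. Its values were 0.467, 0 and 0.935 CPM at 24 h, from 3, 0 and 4 counts, and 29.9, 14.1 and 13.8 CPM at 3 d. At 24 h it was thus at or near the floor of 3 counts per library, and the fitted log2 fold change of 5.49 (adjusted p = 0.000682, standard error 0.77) depends on those few reads. It passed in 18 of 19 alternative fits, and missed in that of the 6 mice alone (adjusted p = 0.0595). Slc9b2 is on chromosome 3 at 135307700 to 135345387, plus strand.

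Atp6v0d2 encodes the d2 subunit of the proton pump, which osteoclasts need for fusion. The 24 h mice had 0.623, 1.88 and 3.04 CPM and the 3 d mice 44.0, 25.6 and 44.9 CPM, a ratio of means of 20.7. Its log2 fold change was 4.43 (adjusted p = 0.00843, standard error 0.76). Leaving out replicate 1 or replicate 2 at 24 h ended the call, with an adjusted p of up to 0.0825.

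The stretches of genome just before Ctsk and Slc9b2, and before Il6 as the cytokine gene with the opposite course, are shown because the results turn on these genes. The windows are those of RefSeq on GRCm38.p6, 250 bases before to 50 after the transcript start. Capitals mark matches on either strand to AP-1 (TGANTCA), the NFAT core (TGGAAA), the PU.1 core (GAGGAA), the E-boxes CACGTG and CATGTG and the TATA box (TATAAA), and in Il6 to AP-1, the NFAT core, the TATA box and the NF-kB form (GGG, any 2 bases, TTT and CC). They are given 5′ to 3′ on the plus strand.
Ctsk, chr3:95498960-95499259: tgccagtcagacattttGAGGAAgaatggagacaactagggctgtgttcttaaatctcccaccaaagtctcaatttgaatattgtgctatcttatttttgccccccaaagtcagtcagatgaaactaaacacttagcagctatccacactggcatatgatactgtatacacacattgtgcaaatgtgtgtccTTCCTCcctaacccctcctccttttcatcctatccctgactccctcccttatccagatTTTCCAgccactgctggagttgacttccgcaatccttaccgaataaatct
Slc9b2, chr3:135307450-135307749: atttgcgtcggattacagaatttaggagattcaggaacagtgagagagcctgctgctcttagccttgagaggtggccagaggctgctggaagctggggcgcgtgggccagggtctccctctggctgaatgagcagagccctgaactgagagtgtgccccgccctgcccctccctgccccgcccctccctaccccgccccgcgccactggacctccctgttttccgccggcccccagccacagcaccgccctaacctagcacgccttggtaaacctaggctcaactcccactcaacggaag
Il6, chr5:30012864-30013163: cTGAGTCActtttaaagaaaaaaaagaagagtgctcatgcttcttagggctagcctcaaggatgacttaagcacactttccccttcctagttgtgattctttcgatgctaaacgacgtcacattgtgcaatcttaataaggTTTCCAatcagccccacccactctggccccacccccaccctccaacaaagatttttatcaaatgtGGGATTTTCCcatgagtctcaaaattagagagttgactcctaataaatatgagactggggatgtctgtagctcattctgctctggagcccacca

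The Ctsk window held GAGGAA at -233, the same letters on the other strand at -58, and TGGAAA on the other strand with its first base at the start site. The PU.1 and NFAT cores occur in 28.3% and 21.4% of 32851 promoters of the same length, so that such matches are common. The Slc9b2 window held none of the letters searched and had 63.3% G and C, against a median of 52.7% over all promoters and 43.7% in Ctsk. In Il6 the NF-kB form began at -44, AP-1 at -249 and TGGAAA on the other strand at -109. These forms occur in 1.63%, 7.81% and 21.4% of all promoters. A match of letters is a description of the sequence and says nothing of binding in these mice.

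The remaining 5 genes that passed rose by less. Jdp2, a leucine-zipper repressor of AP-1 that osteoclast formation requires, had 13.1, 10.3 and 4.67 CPM at 24 h and 39.0, 35.0 and 34.0 CPM at 3 d (log2 fold change 1.92, adjusted p = 0.0207). Kbtbd11, which encodes a protein with BTB and Kelch repeats, had 10.6, 5.80 and 12.6 against 25.0, 42.3 and 34.7 CPM, with a log2 fold change of 1.81 and an adjusted p of 0.0174. An opposite-strand gene model, Gm37844, covers 1772 of its 7137 exon bases, and whether counting used strand is not given in the sources used here. All 6 mice were in order by group for both genes.

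Adrbk2, also named Grk3, encodes a kinase that switches off G protein-coupled receptors. It had 11.5, 5.65 and 7.71 CPM at 24 h and 24.5, 34.1 and 24.0 CPM at 3 d (log2 fold change 1.72, adjusted p = 0.00843). Gusb, the lysosomal beta-glucuronidase, had 16.2, 20.5 and 9.11 against 44.6, 46.4 and 52.9 CPM (log2 fold change 1.64, adjusted p = 0.0207). The last, Kif23, a kinesin of the central spindle that cytokinesis needs, had 17.3, 19.0 and 13.1 against 34.9, 48.2 and 35.0 CPM (log2 fold change 1.25, adjusted p = 0.0394). These 5 depended on single mice. Of the 6 fits that each left out 1 mouse, Kbtbd11 passed in 2, Adrbk2 in 3, Gusb and Jdp2 in 1 each and Kif23 in 0. Without replicate 3 at 24 h, the library that stood apart, Kbtbd11 still passed (adjusted p = 0.0334), and Adrbk2, Gusb, Jdp2 and Kif23 did not, with adjusted p from 0.0602 to 0.287 and the same sign.

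The levels over all 9 times of the series placed these changes. Ctsk had means of 37.3, 41.2, 46.8 and 37.7 CPM at 0 h, 3 h, 6 h and 12 h, and its 24 h mice had a mean below that at 0 h. From 274 CPM at 3 d it went to 946 ± 290.0 CPM at 7 d (SD, n = 6) and back to 319 at 14 d and 272 at 21 d. Mmp9 went from 12.8 CPM at 0 h and 29.3 at 24 h to 389 at 3 d, 1142 at 7 d and 297 at 21 d. Atp6v0d2 and Slc9b2 likewise had their highest means at 7 d, 76.1 and 56.2 CPM. Kif23 followed another course, at 40.7 CPM at 0 h, 16.5 at 24 h and 39.4 at 3 d, so that its 3 d mean was close to that at 0 h.

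**Figure D3:**
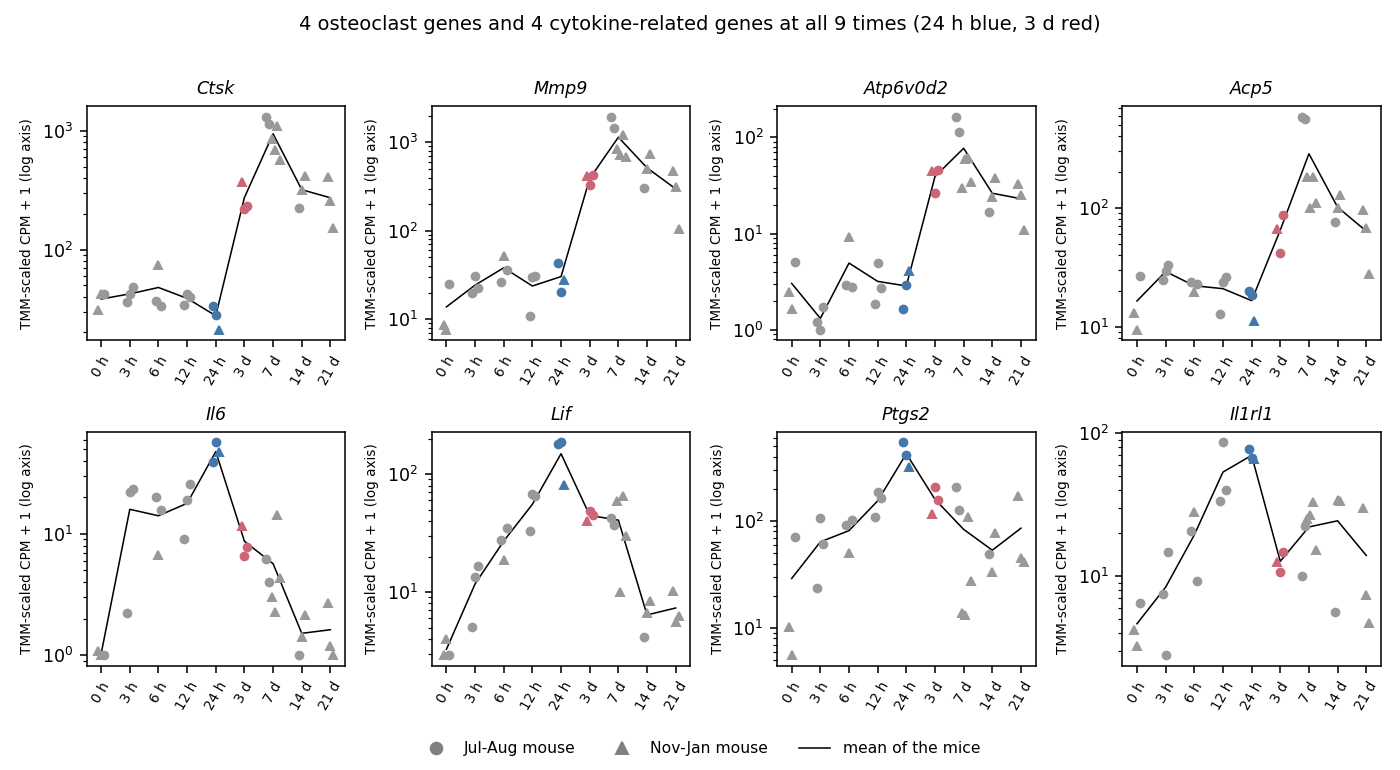
Points are single mice at the 9 times, in TMM-scaled CPM + 1 on a log axis, with 24 h in blue and 3 d in red and a line through the means. The upper genes (Ctsk, Mmp9, Atp6v0d2, Acp5) have their highest mean at 7 d, and the lower genes (Il6, Lif, Ptgs2, Il1rl1) have theirs at 24 h.

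The osteoclast list held 19 genes, of which 17 were tested. Like the other lists, it was drawn up with earlier results of these data known. Its shares beside those of all genes are thus a description and not a test. The receptor calcitonin receptor (Calcr) and Siglec15 had under 1 CPM in every library and were not tested. Of the 17, 3 passed as higher, beside 0.0653% of all genes tested, and none as lower, beside 0%. The fitted change was positive for 12 and negative for 5. In 9 of the 17, or 52.9%, all mice were apart with means at least 2-fold higher at 3 d. This held for 299 genes or 2.17% of all tested. The median log2 fold change of the 17 was 1.39, against -0.01 over all genes, and 1.09 without replicate 3 at 24 h. Without that library again 9 members were apart and at least 2-fold higher, beside 3.30% of all genes. With Ctsk and Mmp9 set aside, the summed level of the list was 356 to 520 CPM at 24 h and 571 to 696 CPM at 3 d.

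Among the signals of the pathway, the receptor stood apart between 24 h and 3 d and the ligands did not. Tnfrsf11a, the RANK receptor on osteoclast precursors, had 41.1, 34.0 and 15.7 CPM at 24 h and 53.5, 90.8 and 95.7 CPM at 3 d (log2 fold change 1.39, adjusted p = 0.289). It passed with campaign as a covariate (adjusted p = 0.0106), with the 6 mice alone and that covariate (0.0131) and in the July to August mice alone (0.0322). The ligand Tnfsf11, which was not picked by the rule for named genes and is given here as its partner, had means of 12.0 ± 5.4 and 16.2 ± 8.90 CPM (SD, n = 3), with overlapping mice. Its decoy receptor Tnfrsf11b had 7.2 and 6.17 CPM, and the ligand Csf1 48.7 and 45.4 CPM, neither outside the spread between mice. At 0 h the means of Tnfsf11 and Csf1 were 0.67 and 23.8 CPM, so that both ligands already stood above that level at 24 h. Csf1r, the receptor for M-CSF, had 30.8, 13.6 and 14.0 against 31.1, 52.0 and 66.8 CPM, with a log2 fold change of 1.34 and an adjusted p of 0.6, and the lowest mouse at 3 d was just above the highest at 24 h. An opposite-strand gene, Hmgxb3, covers 873 of its 5774 exon bases.

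Among genes of fusion and attachment, Itgb3, Dcstamp and Oscar were higher at 3 d in every mouse and did not pass the edgeR test. Itgb3, the beta 3 integrin of the sealing zone, had 14.3, 16.8 and 18.0 CPM at 24 h and 78.9, 39.7 and 33.3 CPM at 3 d (log2 fold change 1.65, adjusted p = 0.103). Dcstamp, a membrane protein required for fusion, had 1.25, 0 and 0 against 7.67, 9.11 and 3.16 CPM. Both Itgb3 and Dcstamp passed in DESeq2's test, and Dcstamp also passed with limma on log2(TPM + 1). The immune receptor Oscar was at 0 in all mice at 24 h and at 3.34, 0.588 and 1.21 CPM at 3 d. Ocstamp, in contrast, had means of 10.6 and 9.81 CPM.

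Among the genes of acid and digestion, Acp5, the tartrate-resistant acid phosphatase, had 19.0, 17.6 and 10.0 CPM at 24 h and 65.4, 40.6 and 86.0 CPM at 3 d, a ratio of 4.12 and a log2 fold change of 2.03 (adjusted p = 0.353). It passed when the July to August mice were fitted alone (adjusted p = 0.0322). Tcirg1, the a3 subunit of the proton pump, had 14.95, 10.5 and 9.35 against 29.4, 31.4 and 34.7 CPM. The chloride channel Clcn7, its partner Ostm1 and carbonic anhydrase Car2, which many other cells also express, had means within 1 SD of each other at both times, Car2 with 119 ± 48.9 and 113 ± 31.9 CPM. Nfatc1, the factor that drives osteoclast differentiation, had means of 46.0 ± 10.8 and 90.4 ± 18.7 CPM, with all mice apart and an adjusted p of 0.39. In TPM, which corrects for length, the order at 3 d was Ctsk at 421 ± 112, Mmp9 at 279 ± 40.2, Acp5 at 109 ± 42.1 and Atp6v0d2 at 34.3 ± 10.0, and Ctsk and Mmp9 lay apart by more than 1 SD.

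In the lower direction, 154 genes or 1.117% of those tested had all mice apart and means at least 2-fold lower at 3 d, and none of them passed. Because fewer than 8 genes passed, the 8 with the smallest unadjusted p among genes of 5 CPM or more with no overlap were named: Urah, Sec61g, Hoxd13, Guk1, Il1rl1, Npm3, Rexo2 and Lif. They did not pass the test. Of these, Urah, an enzyme of urate breakdown, came nearest, with 89.1, 82.6 and 129.7 CPM at 24 h and 54.2, 36.4 and 41.0 CPM at 3 d (log2 fold change -1.19, adjusted p = 0.0649). It passed in 4 of 19 alternative fits. Urah too is a short gene, at 0.398 times the typical length, and replicate 3 at 24 h was its highest library. Without that library its log2 fold change was -0.96 (edgeR adjusted p = 0.471).

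For Sec61g, Guk1, Npm3 and Rexo2, all short genes of 0.258 to 0.371 times the typical length, replicate 3 at 24 h was the highest library. Sec61g, a subunit of the channel that takes proteins into the endoplasmic reticulum, had 30.4, 33.9 and 88.1 CPM at 24 h and 11.9, 26.4 and 17.7 CPM at 3 d. Its log2 fold change was -1.46 with that library and -0.79 without it, and those of Npm3, Guk1 and Rexo2 went from -1.23, -0.78 and -0.98 to -0.71, -0.51 and -0.70. Hoxd13, the homeobox gene that patterns the digits, went the other way in that library, with 28.5, 19.9 and 14.7 against 11.1, 5.88 and 8.98 CPM (log2 fold change -1.26, adjusted p = 0.22, and -1.45 without replicate 3 at 24 h).

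Il6, Lif, Ptgs2 and the receptor gene Il1rl1 lay lower at 3 d in every mouse and did not pass. Il6, interleukin 6, had 37.8, 56.0 and 46.5 CPM at 24 h and 10.7, 5.58 and 6.80 CPM at 3 d, a mean 6.08 times as high at 24 h. Its log2 fold change was -2.57 with a standard error of 0.81 and an adjusted p of 0.417. The gene spans chromosome 5 from 30013114 to 30019981 on the plus strand. Il1rl1, which encodes the receptor for interleukin 33 (ST2), had 76.2, 66.0 and 65.2 against 11.5, 9.70 and 13.8 CPM, a ratio of 5.92 and a log2 fold change of -2.56 (adjusted p = 0.353, standard error 0.67). Both groups of 3 were tight for this gene, and none of the 24 h mice came near the 3 d mice.

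Lif, leukaemia inhibitory factor, had 179, 185 and 79.7 CPM at 24 h and 39.3, 47.9 and 43.7 CPM at 3 d (log2 fold change -1.76 ± 0.47 SE, adjusted p = 0.353), with the December mouse the lowest at 24 h. Ptgs2, the inducible cyclooxygenase of prostaglandin synthesis, had 542, 409 and 319.9 CPM against 114, 205 and 156 CPM (log2 fold change -1.42, adjusted p = 0.839). Mmp3, stromelysin 1, an enzyme that injured fibroblasts and keratinocytes secrete, had 870.3, 797 and 759.5 against 246, 520.4 and 327 CPM (log2 fold change -1.15, adjusted p = 0.838). Of its 31-base stretches, 11.4% also occur in other genes, mostly Mmp10.

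**Figure D4:**
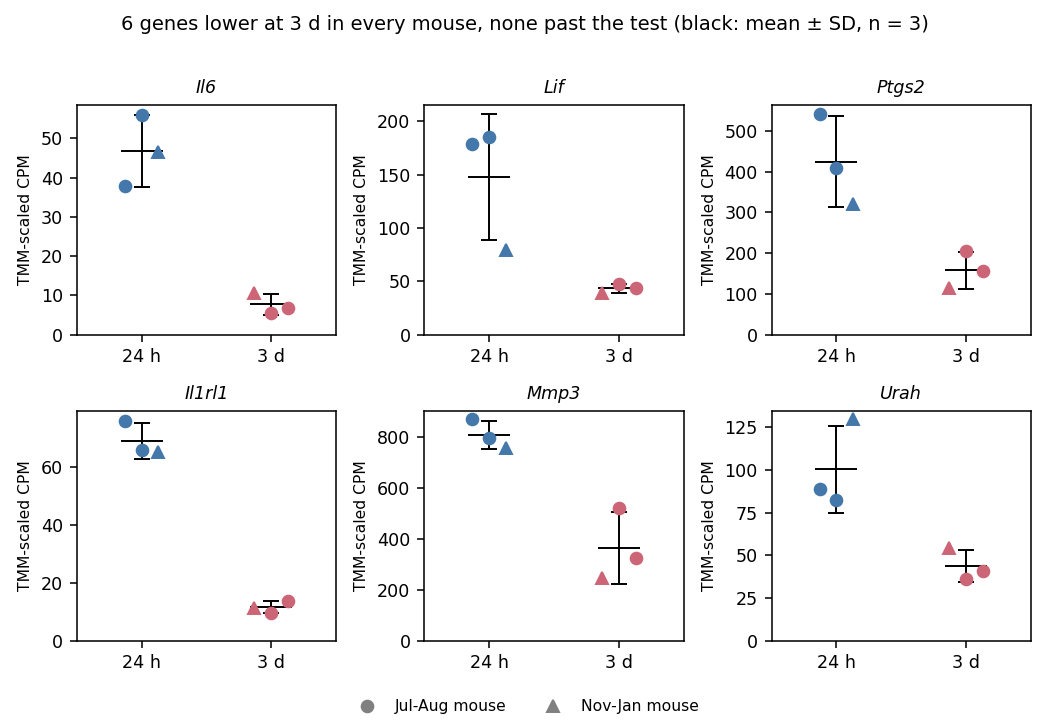
Points are single mice in TMM-scaled CPM on linear axes from 0, with black bars for the mean ± SD of 3 mice, for 6 genes that were lower at 3 d in every mouse and did not pass the test. For Il6 the lowest mouse at 24 h is at 37.8 and the highest at 3 d at 10.7, and for Il1rl1 they are at 65.2 and 13.8.

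The calls for these genes differed with the mice that entered the fit, which for all 30 shares 1 estimate of the spread per gene over 9 times. With the 6 mice fitted alone, Il1rl1 and Il6 passed as lower (edgeR adjusted p = 0.00341 and 0.0263), and with campaign as a covariate in that fit Lif and Ptgs2 passed as well (both adjusted p = 0.0131). The fold changes hardly moved, at -2.55 for both Il6 and Il1rl1 with the 6 mice alone. Leaving out any of the 6 mice from the fit of all mice gave no call for these 4 genes. Within the July to August mice the mean differences on the log2(CPM + 1) scale were -2.72 for Il6, -2.51 for Il1rl1, -1.97 for Lif and -1.39 for Ptgs2, and between the single mice of the later campaign they were -2.02, -2.40, -1.001 and -1.48.

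The same genes were followed over all times of the series. Il6 had a mean of 0.0267 CPM at 0 h, 46.8 at 24 h, 7.70 at 3 d, 4.68 at 7 d and 0.513 at 14 d, and Lif had 2.27, 148, 43.6, 39.7 and 5.4 CPM at the same times. Il1rl1 had 3.63 CPM at 0 h, 69.1 at 24 h, 11.7 at 3 d, 21.1 at 7 d and 23.4 ± 16.3 at 14 d (SD, n = 3). Ptgs2 had 28.03, 424, 158, 82.5 and 52.3 CPM at the same times, and 84.6 ± 73.6 CPM at 21 d (SD, n = 3). All 4 thus had their highest mean of the 9 times at 24 h and were still above the 0 h mean at 3 d.

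The list of neutrophil chemokines and interleukin 1 family genes, which also holds the enzyme gene Ptgs2, had no call among 21 tested of 27 listed. Of these, 2 genes, or 9.52%, had the mice apart and at least 2-fold lower, beside 1.117% of all genes, and none the reverse. The 2 were Ptgs2 and the receptor gene Il1rl1, neither of them a chemokine. The median log2 fold change of the 21 was -0.62, with 14 members negative. It was -0.32 with 1 member at 0 in all mice at 3 d put at its bound, and -0.32 without replicate 3 at 24 h. The chemokine Cxcl1, which draws neutrophils, had 89.7, 138 and 122 CPM at 24 h and 145, 14.4 and 31.1 at 3 d, so that the November mouse kept a high level and the groups overlapped. Cxcl2 had means of 41.8 and 14.8 CPM, also with overlap. The mediators Tnf, Csf2 and Csf3 had under 2 CPM in every library and were not tested.

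The interleukin 6 family had 13 of 14 members tested, no call, and a median log2 fold change of -0.27. Il6 and Lif, or 15.4% of those tested, had the mice apart and at least 2-fold lower, beside 1.117% of all genes. Downstream of the receptors, Socs3, the feedback inhibitor that these cytokines induce, had means of 87.1 and 58.4 CPM with no overlap (adjusted p = 0.94), and Stat3 had 181 and 149.8 CPM with overlap. The receptor chain Il11ra1 had 48.7 and 63.7 CPM. Of 14 monocyte and lymphocyte chemokines tested, none passed and the median was -0.07, or 0.21 without replicate 3 at 24 h. In each direction 1 member, or 7.14%, was apart by at least 2-fold, beside 2.17% of all genes higher and 1.117% lower. The lower one, Ccl2, which draws monocytes and is named after its values were seen, had 2.96, 8.62 and 1.87 against 1.47, 0 and 1.46 CPM. Ccl9, a chemokine that osteoclasts and macrophages secrete, was the member highest in ratio at 3 d, with 17.8, 12.7 and 13.3 against 41.6, 50.5 and 65.8 CPM (log2 fold change 1.84, adjusted p = 0.353), and it passed with the 6 mice alone and campaign as a covariate (adjusted p = 0.0131). Cxcl14, Cxcl12 and Ccl6 overlapped between the times.

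Neutrophil markers gave 1 call, Mmp9, among 19 tested of 30 listed, and no lower call. Their median was -0.39, or -0.54 without Mmp9, and -0.17 over 17 members with genes at 0 in a group put at their bound and those at or under 3 counts in both groups set aside. The calgranulin S100a9, with 17.9, 14.1 and 63.6 CPM at 24 h and 82.8, 52.9 and 26.0 CPM at 3 d, overlapped, as did its partner S100a8 with means of 7.75 and 12.8 CPM. Retnlg, at 2.34, 0.784 and 2.10 CPM at 24 h and at 0 in all mice at 3 d, was at least 2.74-fold higher at 24 h against a floor of 3 counts per library. In all, 2 members, or 10.5%, had the mice apart and at least 2-fold lower, both under 5 CPM, beside 1.117% of all genes.

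Macrophage and monocyte markers had no call among 32 tested. Of these, 6, or 18.8%, had the mice apart and at least 2-fold higher at 3 d, beside 2.17% of all genes, and 1, or 3.12%, at least 2-fold lower, beside 1.117%. Their median was 0.32. Spp1, osteopontin, which osteoblasts and osteoclasts also make, had 330.3, 237 and 125 CPM at 24 h and 504, 506 and 527 CPM at 3 d (log2 fold change 1.15, adjusted p = 0.431). Cd68 had 4.52, 3.61 and 8.65 against 9.14, 16.7 and 23.1 CPM, the scavenger receptor Msr1 had means of 3.44 and 12.3 CPM, and lipoprotein lipase, Lpl, had 10.7 and 32.0 CPM (adjusted p = 0.232). Lpl passed in 4 of 19 alternative fits, among them that with campaign as a covariate (adjusted p = 0.0107). The resident macrophage gene Mrc1 and the complement genes C1qa, C1qb and C1qc overlapped between the times. The summed level of the list was 1589 to 1726 CPM at 24 h and 1972 to 2224 CPM at 3 d. Without Apoe and Spp1 it was 860.5 to 995 and 977 to 1238 CPM, which overlap.

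Interferon-stimulated genes, 27 of them tested, had no call and a median of -0.03. Of them 3, or 11.1%, had the mice apart and at least 2-fold lower, beside 1.117% of all genes. The median was 0.03 without replicate 3 at 24 h. Gbp2 and Iigp1, both guanosine triphosphatases of cell defence, stood with means of 11.1 and 5.28 CPM and of 9.42 and 4.38 CPM. Among 30 regulators that limit inflammation there was no call either, with a median of 0.11 and no member both apart and 2-fold changed. The most abundant, Anxa1, had means of 1627 and 1320 CPM with every 3 d mouse lower, and its log2 fold change was -0.30 (adjusted p = 0.932). AP-1 and immediate early genes had 31 tested, no call and a median of 0.13. Of these, 1, or 3.23%, had the mice apart and at least 2-fold lower, beside 1.117% of all genes, and none the reverse. It was Nr4a3, with means of 16.5 and 7.69 CPM.

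Matrix metalloproteinases and their inhibitors had 1 call, Mmp9, among 17 tested, and a median of 0.50. Of the 17, 3, or 17.6%, had the mice apart and at least 2-fold higher, beside 2.17% of all genes, and 1, or 5.88%, at least 2-fold lower, beside 1.117%. Mmp23, the one of these under 5 CPM at both times and named after its values were seen, had means of 1.38 and 2.84 CPM. Mmp12, the elastase of macrophages, was at 0.156, 0.470 and 0.935 CPM at 24 h, from 1, 3 and 4 counts, and at 4.13, 11.8 and 6.31 CPM at 3 d (adjusted p = 0.418). Mmp2, the fibroblast gelatinase, had means of 195 and 350.0 CPM with overlap, and Timp2 had 264 and 337 CPM. Thus within this family Mmp9, Mmp12 and Mmp23 stood at least 2-fold higher and Mmp3 at least 2-fold lower at 3 d, with the mice apart.

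Collagen chains and the enzymes that build collagen had no call among 38 tested, with 33 positive and a median of 0.45. Col1a1 had 1550.0, 1081 and 602 CPM at 24 h and 1666, 4193 and 1727 CPM at 3 d (log2 fold change 1.23, adjusted p = 0.39). At an unadjusted p under 0.05, 12 or 31.6% were higher, beside 3.38% of all genes, and 0 were lower, beside 3.17%. Replicate 3 at 24 h was the lowest of the 6 libraries for 28 of the 38 members. The 38 are long genes, with a median of 1.62 times the typical length. Without that library 32 were positive with a median of 0.24, and within the July to August mice 34 were positive. Fkbp10, a chaperone of collagen, had means of 19.4 and 43.1 CPM with no overlap, and Col3a1 and Col1a2 overlapped. Of the plasminogen and provisional matrix genes, 27 were tested with no call and a median of -0.09, or 0.11 without replicate 3 at 24 h. Ltbp2, a matrix protein that binds fibrillin, had 9.66, 14.0 and 8.65 against 26.3, 26.4 and 28.7 CPM, and Sparc had means of 767 and 1162 CPM.

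Among 20 osteoblast and osteocyte genes tested there was no call, and 4, or 20%, had the mice apart and at least 2-fold higher, beside 2.17% of all genes, of which Col1a1 and Spp1 are given above. Sp7, osterix, which commits cells to the osteoblast lineage, had 4.05, 1.72 and 1.40 against 5.41, 13.2 and 5.83 CPM. Ibsp, bone sialoprotein, had 162, 122 and 126 against 458, 689 and 179 CPM (log2 fold change 1.69, adjusted p = 0.39), with replicate 3 at 3 d close to the 24 h mice. Without replicate 3 at 24 h, 2 members were apart and at least 2-fold higher, beside 3.30% of all genes. In the same libraries 3 were apart and at least 2-fold lower, beside 2.04%, and the median of the list went from 0.31 to 0.15. With all 6 mice, 0 members were apart and at least 2-fold lower, beside 1.117%. At an unadjusted p under 0.05, 4 members, or 20%, were higher, beside 3.38% of all genes, and 3, or 15%, were lower, beside 3.17%. Bglap2 was at 1.56, 1.10 and 0 CPM at 24 h, from 10, 7 and 0 counts, and at 0 in all mice at 3 d.

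All 38 mitosis genes tested had a positive fold change, with a median of 0.66 and 1 call, Kif23. At an unadjusted p under 0.05, 11 or 28.9% were higher, beside 3.38% of all genes. Of the 38, 3, or 7.89%, were apart and at least 2-fold higher, beside 2.17% of all genes. Ccna2, cyclin A2, had 23.8, 23.4 and 15.2 against 43.4, 40.0 and 44.9 CPM (log2 fold change 1.03, adjusted p = 0.232), and Top2a had means of 116 and 175 CPM with no overlap. Birc5 and Mki67 overlapped between the times. Replicate 3 at 24 h was the lowest library for 29 of the 38. Without it 33 were positive with a median of 0.38, and within the July to August mice 26 were positive. By contrast, 37 genes of DNA replication had no call, 25 positive and a median of 0.14, with Pcna at means of 77.7 and 73.0 CPM. Without replicate 3 at 24 h, 18 were positive and the median was -0.02.

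The remaining lists had no call in either direction. Wound-edge and stratified keratinocyte genes, 42 tested, had a median of -0.14 (-0.03 without replicate 3 at 24 h) and summed to 63585 to 96563 CPM at 24 h and 59295 to 87218 CPM at 3 d. Hypoxia and glycolysis genes had a median of 0.12 over 33, endothelial genes 0.13 over 25, and smooth muscle and myofibroblast genes -0.13 over 22. Among the endothelial genes, the tip-cell peptide Apln had 7.16, 4.39 and 1.64 against 12.5, 17.6 and 13.8 CPM, and Robo4 had means of 3.15 and 8.04 CPM, the 2 members, or 8%, that were apart and at least 2-fold higher, beside 2.17% of all genes. The general endothelial markers Pecam1, Kdr and Emcn overlapped, with ratios of 1.21, 0.987 and 1.02, and the median of the list was -0.05 without replicate 3 at 24 h. MHC class II and Langerhans cell genes had a median of 0.51 over 15, with the class II chaperone Cd74 at means of 39.3 and 56.2 CPM. Schwann cell markers had a median of 0.01 over 12 (0.21 without replicate 3 at 24 h), lymphocyte and mast cell markers -0.01 over 7 (-0.30), skeletal muscle markers 0.50 over 6 (0.96), and adipocyte markers -0.51 over 10. Lrrc15, a fibroblast surface gene, had 1619.8, 862 and 968 CPM at 24 h and 109, 1555 and 1314 CPM at 3 d, so that the November mouse alone was low.

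Erythroid markers had a median of -1.59 over 6 tested, none of them past the test, with 3, or 50%, apart and at least 2-fold lower, beside 1.117% of all genes. One of the 6, Hba-a1, was at 0 in all mice, and the median was -1.73 over 5 without it. The alpha globin Hba-a2 had 40.8, 25.2 and 40.2 CPM at 24 h and 2.75, 19.7 and 11.4 CPM at 3 d (adjusted p = 0.789), and 91.0% of its 31-base stretches occur also in other genes, chiefly Hba-a1. The list summed to 47.2 to 86.2 CPM at 24 h and to 6.59 to 37.9 CPM at 3 d. The part of blood left in the tissue in the other differences was not tested.

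**Figure D5:**
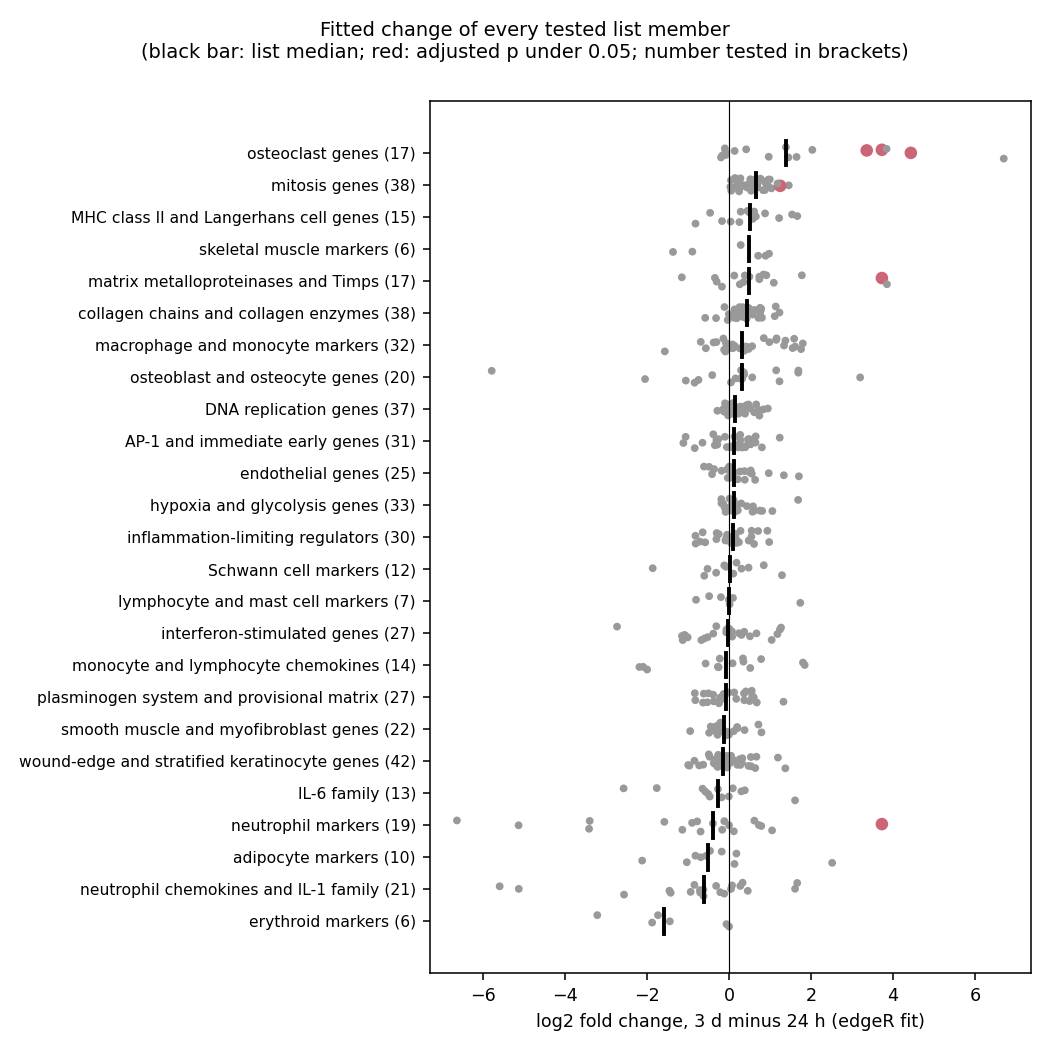
Each point is the fitted log2 fold change (3 d minus 24 h) of 1 tested member of a list, with a black bar at the list's median and red for an adjusted p under 0.05. The osteoclast list has the highest median, 1.39, and the erythroid list the lowest, -1.59, and red points occur in 4 lists, Mmp9 being in 3 of them.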

How the data were processed

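The series holds 30 libraries, and 6 of them are compared here. One title identifier with its date occurs at both 0 h and 12 h. Whether those libraries came from 1 mouse is not given in the sources used here, and both are in the shared fit. Per the labels, base calls were made with CASAVA 1.8.2, and the authors aligned reads with Bowtie to mouse transcripts of Ensembl v75 (mm10), with multiply mapped reads shared out by RSEM 1.2.3. The expected counts they deposited are not normalized. The TPM they deposited are relative to all genes of a mouse. A deposited table of average TPM was not used, since it holds no spread.

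Expected counts were rounded to whole numbers, scaled by TMM and tested by quasi-likelihood in edgeR 4.0.16 (R 4.3.3), after its filter for low counts by time (13793 of 20321 genes, 99.9% of counts), with all 30 libraries in the fit and no covariate. P-values measure the spread between single mice. Differences within a campaign are on the log2(CPM + 1) scale. Alternatives were DESeq2 1.42.0 and its size factors, other filters, limma 3.58.1 on log2(TPM + 1) and log2(TPM + 0.1), campaign as a covariate, the 6 mice alone, a threshold of 0.01 and each mouse left out. Jul-Aug mice alone, thinned libraries and centring by gene length were added after the data were seen. Methods were tested on simulated data.

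The comparison, the 25 lists and the rule for named genes were chosen with earlier results of these data known. Named are up to 15 genes per direction past the test with 5 CPM or more and no overlap (8 by unadjusted p where fewer than 8 passed), list members past the test or apart by 2-fold at 5 CPM, and in each list the 3 with the highest TPM. Tnfsf11, Tnfrsf11b, Csf1, Nfatc1, Clcn7, Ostm1, Oscar, Siglec15, Tnf, Csf2, Csf3, Ccl2 and Mmp23 lie outside it and were added after their values were seen. Replicates were numbered by accession and pair nothing. The floor of 3 counts covers counting error alone, as reads copied by PCR do not count separate molecules. Coordinates are from GENCODE M21 (GRCm38, 118 of 118 genes looked up matched), and gene length is relative, from the deposited counts and TPM. Python 3.11.15, numpy 2.4.6, pandas 2.3.3 and matplotlib 3.10.9 were used.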

Additional observations from a re-analysis of the deposited data

Results flagged for a closer look

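For 31 genes the change from 24 h to 3 d differed between the July to August and the November to January mice at an adjusted p under 0.05 (edgeR interaction test, 1401 at an unadjusted p under 0.05). The later campaign held 1 mouse at each of these times, so that the spread came from the other groups of the fit, and the test compares single libraries rather than campaigns. In all 31, replicate 3 at 24 h was the extreme library of the 6, the highest for 21 and the lowest for 10. The 21 include many ribosomal protein genes, such as Rpl17 with 514, 532 and 2121 CPM at 24 h and 551 to 589 at 3 d. None of the 31 is among the 9 genes that passed between the times or the other genes named by rule.

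Among 28 genes followed over time, 2 had a mouse far from the other 5 at 7 d, and chance flags about 1 in 20. For Il6 the gap to the next mouse was 0.673 of the whole range, with 13.2 CPM against a median of 3.18. For Tnfrsf11b it was 0.660, with 19.7 CPM against a median of 6.10.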

How the results depend on the processing

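The 9 genes changed, 9 higher and 0 lower, became 20 (18 and 2) with DESeq2's test, 5 (3 and 2) with the 6 mice alone, 15 (14 and 1) with campaign as a covariate, 14 (9 and 5) with the 6 mice alone and that covariate, and 5 higher at a threshold of 0.01. Leaving out each mouse gave 4 to 8 changed, 4 to 8 higher and 0 to 1 lower. Without replicate 2 at 24 h, or replicate 2 or 3 at 3 d, the totals were 5, 4 and 5. Size factors, other filters, robust moderation and limma gave 9 to 13 genes, thinned libraries 10 with 1 lower (Urah), and centring by gene length and the July to August mice alone 7 each. Ctsk and Mmp9 passed in all 19 other fits, Slc9b2 in 18 and Atp6v0d2 in 17, and the other 5 in 9 to 12.

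The count of genes that differ between campaigns became 85 without the left-foot mice at 7 d. Of 475 list medians under other settings, 6 moved beyond 1 SD. With limma the median of all genes rose to 0.15 (TPM + 1) and 0.17 (TPM + 0.1), while the median log2 fold change of neutrophil chemokines and IL-1 family was -0.00808 and -0.00510. That of skeletal muscle markers was -0.24 with TPM + 0.1. Leaving out single mice moved the muscle list between -0.75 and 0.96 and the erythroid list between -2.22 and -1.02, and the July to August mice alone gave -0.75 for the latter. None of the 9 genes changed sign, and the causes were not tested. The shallowest library held 3177205 counts, and genes at or under 3 counts give no bound on a change. No paired analysis was possible because the 24 h and the 3 d titles share no mouse identifier.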
